A study of Mus musculus with 4 samples.

Results

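The proteasome genes were read out in ganglion cells sorted from mouse retina, the neurons that send axons through the optic nerve to the brain. The set holds 39 genes chosen by symbol among the 78334 gene identifiers of the counts table, namely Psma1 to Psma7, Psmb1 to Psmb7, Psmc1 to Psmc6, Psmd1 to Psmd14, Psme1 to Psme4 and Adrm1. The immunoproteasome genes Psmb8, Psmb9 and Psmb10 were kept apart as related genes. The question was how the level of each subunit, and of the core, ATPase, lid and activator groups, differed between cells given a hairpin against the microRNA miR-132-3p and cells given a scrambled hairpin.

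All mice were wild type, of both sexes, with no strain given. Each eye received 2 µl of adeno-associated virus of serotype 2 into the vitreous at 8 weeks of age, the optic nerve was crushed 2 weeks later, and cells were taken 2 weeks after the crush. The virus expressed the anti-miR132-3p shRNA in one group and the scramble shRNA in the other, and both viruses carried an mCherry reporter. For each group 10 retinas were pooled, cells were panned for Thy1 and sorted for mCherry, about 5000 cells entered each of 2 libraries, and about 40% of ganglion cells had been transduced. Both groups were therefore injured and transduced, and uninjured retina was not analysed here. The columns of the scramble group are named for mCherry, which both viruses carry, and were assigned by exclusion, so every direction rests on that assignment.

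The proteasome degrades proteins that carry ubiquitin chains. Its core particle is a barrel with alpha rings at the ends, which gate the entrance, and beta rings inside, which hold the proteolytic sites. A regulatory particle caps the barrel: its base holds a ring of ATPases that unfold substrates together with ubiquitin receptors and scaffolds, and its lid removes the ubiquitin chains. Neurons depend on this machine to clear misfolded proteins and to remodel axons and synapses, and the subunits are made in matched amounts. MiR-132-3p is a neuronal microRNA that pairs through its seed with sites in the 3′ UTRs of messenger RNAs. Its mature sequence, from RefSeq on GRCm38.p6 (chr11:75173723-75173744, plus strand), is shown because the hairpin is directed against it, with the seed, bases 2 to 8, in capitals.
miR-132-3p: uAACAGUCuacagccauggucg

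The anti-miR132-3p libraries held 1732416 and 1731199 counts, and the scramble libraries 1845090 and 1846637 counts. The 2 libraries of a group differed by no more than sampling noise, since the test found no difference within either pair. A chi-square of counts, divided by its degrees of freedom, came to 0.990 between the anti-miR132-3p libraries (p = 0.775) and 1.01 between the scramble libraries (p = 0.144), against 4.39 to 4.41 across groups. Each pair was counted as 1 sample, so n = 1 per group. Values therefore carry no SD, and the differences lack a replicate check. Levels are in CPM, the counts scaled to a common library size by TMM. Folds are anti-miR132-3p over scramble on the CPM of summed counts, with exact 95% Clopper-Pearson intervals that cover counting error only. A gene is said to have risen or fallen where edgeR's quasi-likelihood test with Benjamini-Hochberg adjustment over 11427 tested genes gave an adjusted p under 0.05. With n = 1 that test weighs the reads of the 4 libraries against each other and says nothing of how conditions vary. Fewer cells of a type and less RNA per cell cannot be told apart in such bulk samples.

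The standard proteasome transcripts were lower on balance in the anti-miR132-3p libraries, by small amounts. Of the 39 genes, all of which passed the low-count filter, 20 fell and 1, Psmd3, rose. Over all tested genes 10.4% fell and 13.5% rose. The median log2 fold change was -0.25 for the 39 genes and -0.003 for all tested genes, and 35 of the 39 values lay below 0. The 20 genes that fell did so by 12.3% to 22.0%, with adjusted p-values of 0.000398 to 0.0490 by edgeR's quasi-likelihood test with Benjamini-Hochberg adjustment. By a plain fold, 17 of the 39 genes were at least 1.2-fold lower, and 1 was at least 1.2-fold higher, against 21.6% and 27.6% of all tested genes. At a 1.5-fold minimum 0 of 39 subunits were lower or higher, against 5.12% and 12.6% of all tested genes. With any 1 library left out, edgeR called no gene in either direction. The median log2 fold change of the 39 genes was then -0.27 to -0.20, against -0.0035 to 0.0059 for all tested genes. An assumed coefficient of variation of 0.1 between samples left 0 subunits called, against 0.490% of all tested genes lower and 4.11% higher. DESeq2's Wald test called 3 subunits lower, Psmb1, Psmc2 and Psmc3, and 0 higher, against 2.73% and 4.72% of the genes it gave an adjusted p.

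Summed over the 39 genes, the level was 7716 and 7530 CPM in the anti-miR132-3p libraries, against 8762 and 8763 CPM in the scramble libraries. Both sums with the anti-miR132-3p shRNA were below both sums with the scramble shRNA. The ratio of the pooled sums was 0.870 (0.856 to 0.884). Gene by gene, both anti-miR132-3p libraries lay below both scramble libraries for 28 of the 39 genes and above them for 1, and the libraries overlapped for 10. The share of all tested genes was 30.6% below and 31.3% above. The counting interval of the fold lay below 1 for 25 genes, above 1 for 1 and around 1 for 13. The share of all tested genes under this interval rule was not computed, so these 3 counts have no background to be read against. The plot of folds by subunit group shows these intervals.

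**Figure D1:**
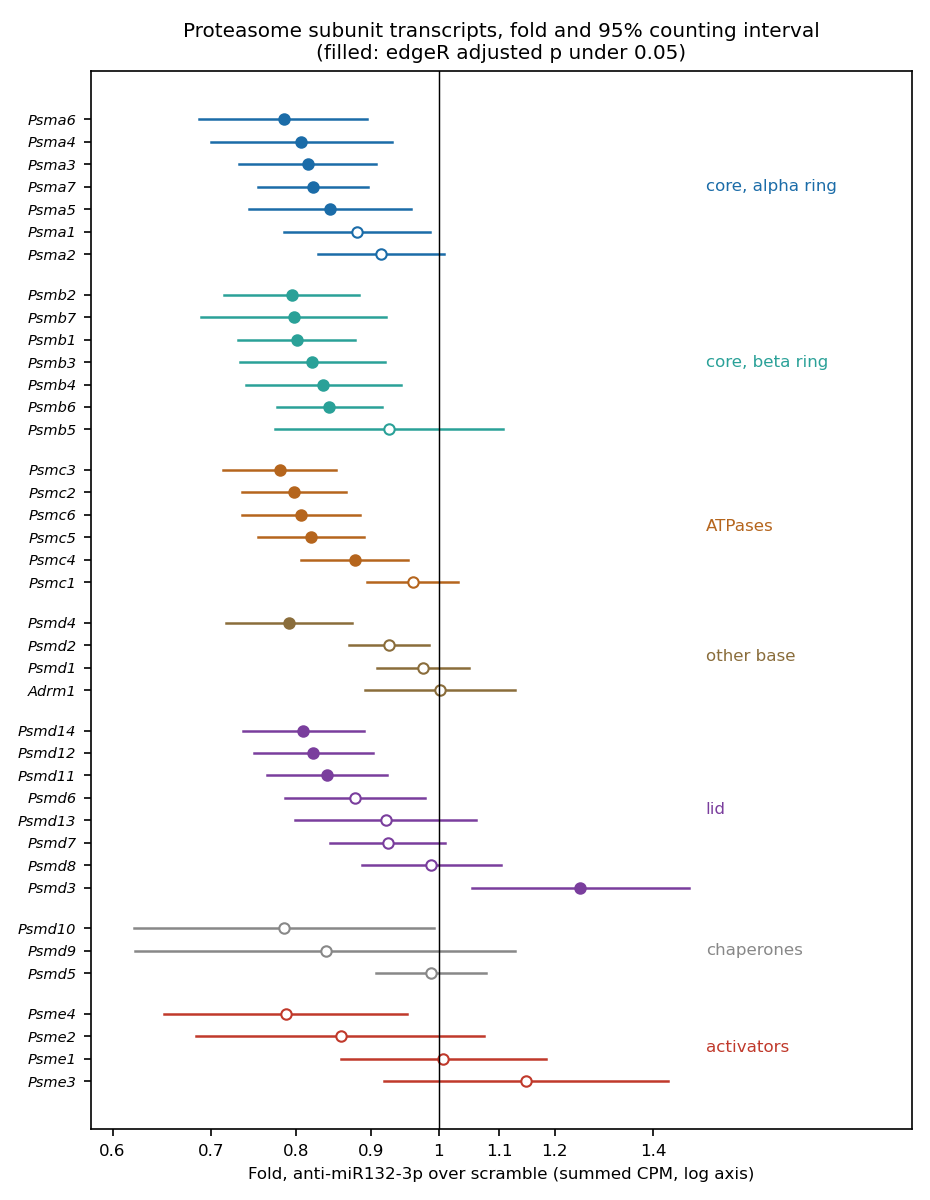
Fold of each of the 39 proteasome genes, anti-miR132-3p over scramble, on a log axis, grouped by place in the complex; points are ratios of summed CPM, lines exact 95% counting intervals, and filled points have an edgeR adjusted p under 0.05. Of the 20 core and ATPase genes, 16 have filled points left of 1, while Psmd3 alone has a filled point right of 1; most of these falls are not called after a correction for GC content and transcript length.

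These folds moved with properties of the transcripts. Across all tested genes the log2 fold change had a Spearman correlation of 0.282 with transcript length and 0.246 with GC content, a description over genes that share the same 4 libraries. The proteasome transcripts had a median length of 1540 bases, against 3040 bases for all tested genes, and 36 of the 39 were shorter than that. Their median GC content was 49.7%, against 49.4%. Within the 39 genes the correlation of log2 fold change was 0.202 with length and 0.346 with GC content. The plot of fold change against length shows where the subunits lie among the tested genes.

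**Figure D2:**
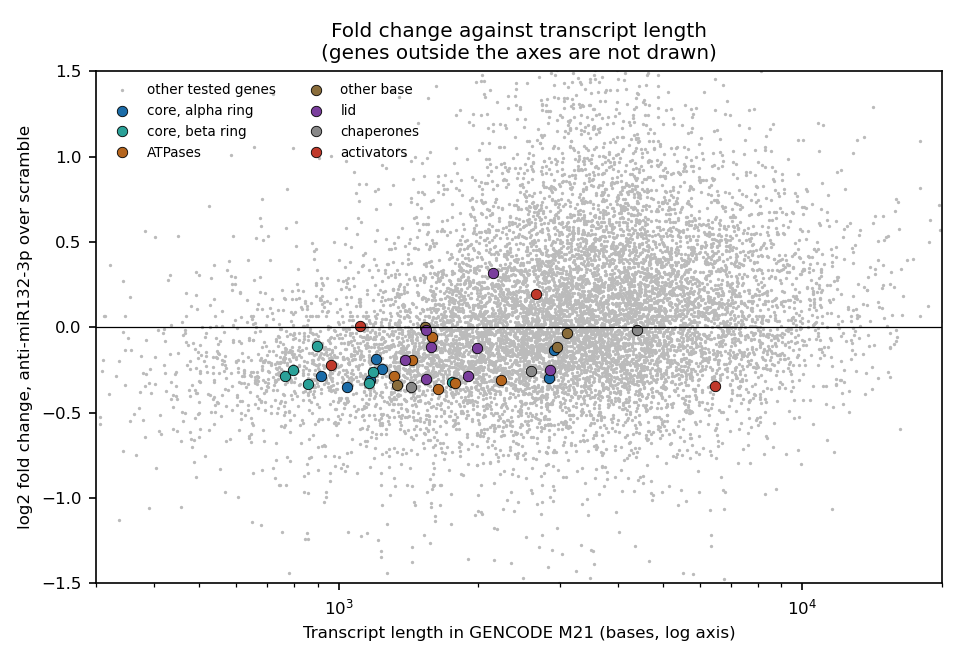
Log2 fold change, anti-miR132-3p over scramble, against GENCODE M21 transcript length in bases on a log axis, for the other tested genes (grey) and the 39 proteasome genes (coloured by group). The subunits lie toward short transcripts, 36 of 39 under the all-gene median of 3040 bases.

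When GC content and length were modelled in each library and removed, most subunits were no longer called. The median log2 fold change became -0.01, against 0.03 for all tested genes, and 22 of the 39 values lay below 0. After this correction 4 of the 39 were called lower and 2 higher by edgeR's quasi-likelihood test, against 7.46% and 10.8% of all tested genes, so the count of subunits called lower was near the share over all genes. Psmc3 had a corrected log2 fold change of -0.34, Psmd4 of -0.25, Psmd11 of -0.21 and Psmd2 of -0.20, and the first 3 of these had also fallen without the correction. Psma1 (0.24) and Psmc1 (0.16) were called higher. The correction removes any difference that runs along length or GC content, whatever its source, and which of the versions is nearer to the cells was not tested. All values that follow are uncorrected unless they are called corrected.

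**Figure D3:**
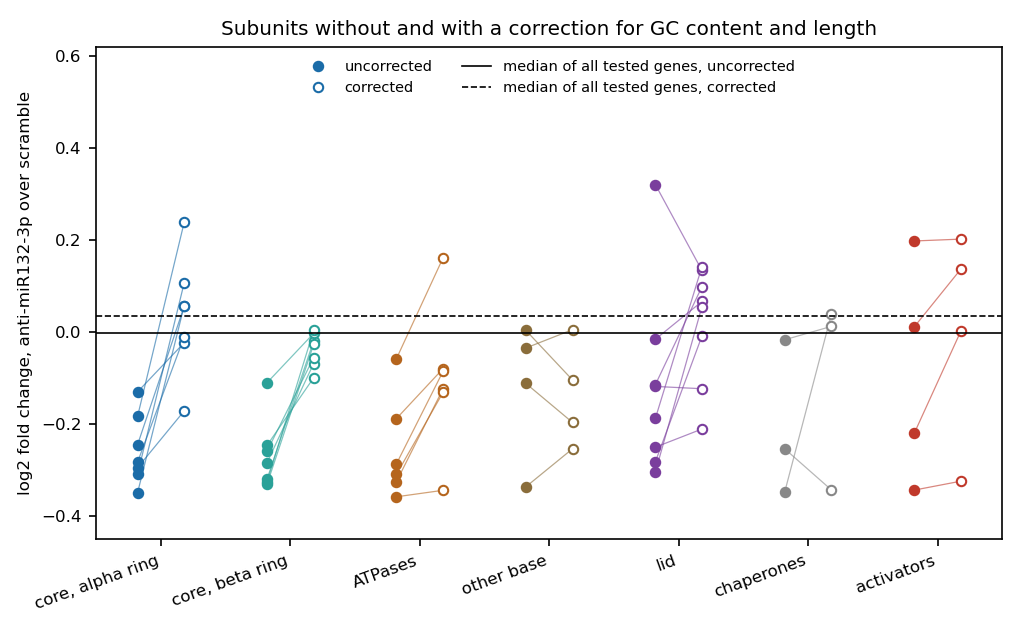
Log2 fold change, anti-miR132-3p over scramble, of each subunit without (filled) and with (open) the correction for GC content and length, joined by a line; horizontal lines are the medians of all tested genes. Uncorrected core and ATPase values all lie below 0, and 14 of these 20 stay below 0 after the correction.

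The alpha ring, which forms the gate of the core particle, was lower at 5 of 7 genes. Its median log2 fold change was -0.28 and its summed level 1210 and 1152 CPM in the anti-miR132-3p libraries, against 1406 and 1403 CPM in the scramble libraries, a ratio of 0.841 (0.807 to 0.877). Psma6 had 112 and 119.6 CPM in the anti-miR132-3p libraries, against 144 and 152 CPM in the scramble libraries, a fold of 0.784 (0.687 to 0.895). Psma7 had 284 and 269 CPM in the anti-miR132-3p libraries, against 338 and 335 CPM in the scramble libraries, a fold of 0.822 (0.754 to 0.895). The 2 groups did not overlap at either gene, and Psma6 had the lowest fold of the ring. Psma3 had 193 and 163 CPM in the anti-miR132-3p libraries, against 213 and 224 CPM in the scramble libraries. Psma4 had 104 and 98.1 CPM in the anti-miR132-3p libraries, against 126 and 125 CPM in the scramble libraries. Psma5 had 133 and 124 CPM in the anti-miR132-3p libraries, against 147 and 158 CPM in the scramble libraries. All 3 fell, with folds of 0.815, 0.807 and 0.843, and their groups did not overlap. Psma1, at a fold of 0.880 (0.785 to 0.987), and Psma2 did not pass the test. Psma2, the highest of the ring by fold, had 226 and 214 CPM in the anti-miR132-3p libraries, against 252 and 229.6 CPM in the scramble libraries, a fold of 0.913 (0.827 to 1.01). With the correction none of the 7 was called lower and the ring's median was 0.06, with Psma1, Psma4, Psma5 and Psma6 above 0. Of these Psma1 was called higher.

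The beta ring, where proteins are cut, was lower at 6 of 7 genes. Its median log2 fold change was -0.28, and its summed level was 1188 and 1195 CPM in the anti-miR132-3p libraries, against 1452 and 1444 CPM in the scramble libraries, a ratio of 0.823 (0.790 to 0.857). This was the lowest summed ratio of the 7 subunit groups. Of the beta genes, 3 encode the active sites. Psmb5, the chymotrypsin-like subunit, had 69.6 and 67.9 CPM in the anti-miR132-3p libraries, against 74.9 and 73.6 CPM in the scramble libraries, and did not pass the test (fold 0.926, 0.774 to 1.11). Psmb6, the caspase-like subunit, had 316 and 291 CPM in the anti-miR132-3p libraries, against 367 and 354 CPM in the scramble libraries (fold 0.843, 0.776 to 0.915). Psmb7, the trypsin-like subunit, had 96.8 and 97.5 CPM in the anti-miR132-3p libraries, against 113 and 131 CPM in the scramble libraries (fold 0.797, 0.690 to 0.921). Psmb6 and Psmb7 fell, while the interval of Psmb5 holds 1 and also holds the folds of the other 2, so no difference among the active-site genes was shown.

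The remaining beta genes have structural places in the ring, and all 4 fell. Psmb2, the lowest of the ring, had 177 and 186 CPM in the anti-miR132-3p libraries, against 218 and 239 CPM in the scramble libraries, a fold of 0.795 (0.715 to 0.883). Psmb1 had 231 and 254 CPM in the anti-miR132-3p libraries, against 308 and 297 CPM in the scramble libraries, a fold of 0.801 (0.731 to 0.877). Both stood clear of the scramble libraries. Psmb3 had 151 and 164 CPM in the anti-miR132-3p libraries, against 197.5 and 187 CPM in the scramble libraries. Psmb4 had 146 and 135 CPM in the anti-miR132-3p libraries, against 173 and 163 CPM in the scramble libraries. These 2 had folds of 0.821 and 0.835, again without overlap. With the correction no beta gene was called and the median was -0.03, with Psmb7 at 0.0032.

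Scaled by transcript length, core transcript levels spanned 62.5 CPM per kb (Psma3) to 380.2 CPM per kb (Psmb6) in the anti-miR132-3p cells, against 76.7 to 451 CPM per kb for the same genes in the scramble cells. The annotated transcript may not be the one these cells use, which bears most on Psma2 and Psma3, whose annotated lengths of 2911 and 2846 bases are the longest in the core. The plot of levels in the 4 libraries gives all 39 genes on this scale.

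**Figure D4:**
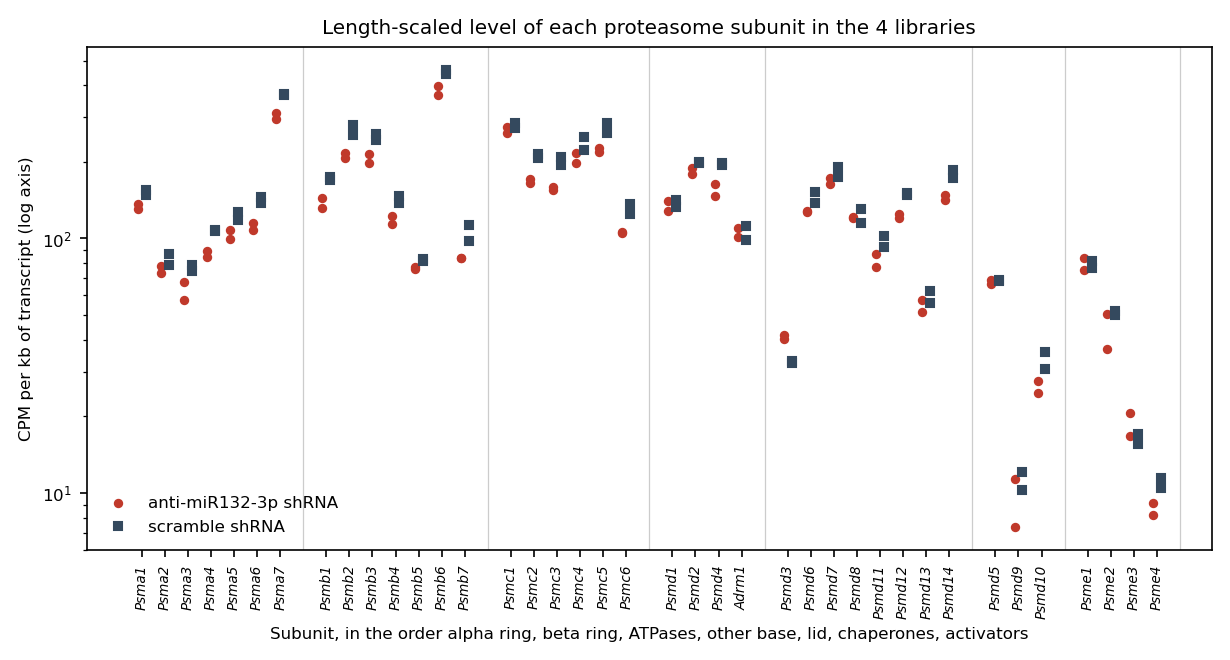
Level of each proteasome gene in CPM per kb of transcript on a log axis; circles are the 2 anti-miR132-3p libraries and squares the 2 scramble libraries. Circles lie below squares for 28 of the 39 genes, and Psmd3 is the gene with both circles above both squares.

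The ATPase ring of the base, which pulls substrates into the core, was lower at 5 of 6 genes, with a median log2 fold change of -0.30. Its summed level was 1823 and 1792 CPM in the anti-miR132-3p libraries, against 2150 and 2125 CPM in the scramble libraries, a ratio of 0.846 (0.818 to 0.875). Psmc3, whose tail docks into the alpha ring and helps open its gate, had the lowest fold of all 39 genes. It had 261 and 253 CPM in the anti-miR132-3p libraries, against 342 and 318 CPM in the scramble libraries, a fold of 0.780 (0.714 to 0.851). It was also the lowest with the correction. Psmc2 had 304 and 295 CPM in the anti-miR132-3p libraries, against 368 and 383 CPM in the scramble libraries, a fold of 0.798 (0.735 to 0.866). Psmc6 had 237 and 236 CPM in the anti-miR132-3p libraries, against 306 and 280.0 CPM in the scramble libraries, a fold of 0.806 (0.735 to 0.884). Psmc5 had 298 and 289 CPM in the anti-miR132-3p libraries, against 342 and 373 CPM in the scramble libraries, a fold of 0.819 (0.754 to 0.890). These 3 fell without overlap. Psmc4 had 312 and 284 CPM in the anti-miR132-3p libraries, against 360.1 and 319.8 CPM in the scramble libraries. Its fold of 0.877 (0.807 to 0.954) was the smallest fall among the genes called. Psmc1, gate-opening like Psmc3, was the ATPase gene that did not pass the test. It had 412 and 435 CPM in the anti-miR132-3p libraries, against 431 and 451 CPM in the scramble libraries, which overlap (fold 0.960, 0.894 to 1.03), and with the correction it was called higher.

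The other base genes were mixed. The summed level was 1381 and 1281 CPM in the anti-miR132-3p libraries, against 1421 and 1458 CPM in the scramble libraries, a ratio of 0.925 (0.888 to 0.962), with a median log2 fold change of -0.07. The ubiquitin receptor genes Psmd4 and Adrm1 did not show the same values. Psmd4 had 217 and 196 CPM in the anti-miR132-3p libraries, against 263 and 259 CPM in the scramble libraries, a fold of 0.791 (0.717 to 0.873), and it was called lower with and without the correction. Adrm1 had 168 and 155 CPM in the anti-miR132-3p libraries, against 151 and 172 CPM in the scramble libraries, a fold of 1.00 (0.891 to 1.13). The scramble libraries of Adrm1 enclose both anti-miR132-3p libraries. The intervals of Psmd4 and Adrm1 do not overlap, and their difference was not tested. The scaffold genes Psmd1 and Psmd2 did not pass the test, at folds of 0.976 (0.908 to 1.05) and 0.925 (0.869 to 0.985), and Psmd2 was called lower with the correction.

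The lid, which carries the deubiquitinase of the complex, had 3 genes that fell and 1 that rose among 8. Its median log2 fold change was -0.15, and its summed level was 1515 and 1519 CPM in the anti-miR132-3p libraries, against 1719 and 1691 CPM in the scramble libraries, a ratio of 0.889 (0.857 to 0.923). Psmd14, the deubiquitinase, had 219 and 229 CPM in the anti-miR132-3p libraries, against 267 and 287 CPM in the scramble libraries, a fold of 0.809 (0.736 to 0.890). Psmd7, its inactive partner, had a fold of 0.923 (0.844 to 1.01) and did not pass the test. The intervals of the partners overlap, and their difference was not tested. Psmd12 had 238 and 229 CPM in the anti-miR132-3p libraries, against 283 and 286 CPM in the scramble libraries, a fold of 0.822 (0.748 to 0.902). Psmd11 had 246 and 220.0 CPM in the anti-miR132-3p libraries, against 264 and 292 CPM in the scramble libraries, a fold of 0.840 (0.765 to 0.923). Both are scaffold subunits of the lid's horseshoe, and their groups did not overlap.

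Psmd3, another of those scaffold subunits, was the exception. It had 86.4 and 89.4 CPM in the anti-miR132-3p libraries, against 69.9 and 70.8 CPM in the scramble libraries, a fold of 1.249 (1.05 to 1.48). Both anti-miR132-3p libraries were above both scramble libraries, with an adjusted p of 0.0436 by edgeR's quasi-likelihood test with Benjamini-Hochberg adjustment, close to the threshold. With the correction its log2 fold change was 0.13 and it was not called. Per kb it was also the lowest lid transcript, at 40.9 CPM in the anti-miR132-3p cells, against 32.8 CPM in the scramble cells. The lid genes Psmd6, Psmd8 and Psmd13 did not pass the test, with folds of 0.877, 0.989 and 0.921.

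None of the chaperone or activator genes passed the test. Psmd5, Psmd9 and Psmd10 hold ATPases during assembly of the base and are absent from the finished particle. Their summed ratio was 0.951 (0.880 to 1.03), and their median log2 fold change was -0.25. The sum follows Psmd5, which held 1022 of the 1235 counts of the 3 genes in the anti-miR132-3p cells. Psmd10, the lowest of the 3, had 39.4 and 35.4 CPM in the anti-miR132-3p libraries, against 43.8 and 51.5 CPM in the scramble libraries, a fold of 0.785 (0.620 to 0.992). Psmd5, the highest of them, had 301 and 292 CPM in the anti-miR132-3p libraries, against 299 and 301 CPM in the scramble libraries, a fold of 0.988 (0.906 to 1.08). Psmd10 had 129 counts in the anti-miR132-3p cells, against 172 in the scramble cells, and at this depth its interval was wide. Psmd9 was rarer still and had a fold of 0.838 (0.621 to 1.13).

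The activators replace the regulatory particle at the end of the barrel. Their summed ratio was 0.940 (0.854 to 1.03), and their median log2 fold change was -0.11. Psme1 and Psme2 form the activator that interferon induces. Psme1 had 93.4 and 83.6 CPM in the anti-miR132-3p libraries, against 84.9 and 90.7 CPM in the scramble libraries, a fold of 1.01 (0.858 to 1.18). Psme2 had a fold of 0.858 (0.684 to 1.07). Neither was called in either direction. Psme3, the nuclear activator, had 44.6 and 55.2 CPM in the anti-miR132-3p libraries, against 41.6 and 45.4 CPM in the scramble libraries, a fold of 1.15 (0.919 to 1.43). Psme4, a large single-chain nuclear activator, had 53.3 and 59.2 CPM in the anti-miR132-3p libraries, against 68.2 and 74.7 CPM in the scramble libraries, a fold of 0.787 (0.650 to 0.952). Its groups did not overlap and it missed the threshold, with an adjusted p of 0.0604 by edgeR's quasi-likelihood test with Benjamini-Hochberg adjustment. Psme4 is the longest of the 39 transcripts at 6491 bases, and its corrected log2 fold change was -0.33.

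Set side by side, the core and ATPase genes had 16 of 20 that fell and all 20 values below 0, with a median log2 fold change of -0.29. The other 19 genes had 4 that fell and 1 that rose, with a median of -0.12. Pooling the core with the ATPases was not among the planned subunit groups. The 19 also include the rarest subunits, where a change of a given size is harder to call. Psmd9 had 84 counts in the anti-miR132-3p cells and 105 in the scramble cells, and Psmd10 had 129 and 172. With the correction these medians were -0.03 and 0.0047. The difference between the 2 sets was not tested.

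Among the related genes of the ubiquitin and proteasome pathway, an immunoproteasome gene had the largest fold. Psmb9, which takes the place of Psmb6 when interferon is present, had 11.6 and 8.13 CPM in the anti-miR132-3p libraries, against 1.66 and 0.553 CPM in the scramble libraries. These are 34 counts against 4, an 8.90-fold difference (3.17 to 34.5), and Psmb9 rose by edgeR's quasi-likelihood test with Benjamini-Hochberg adjustment (adjusted p = 0.000496). It was called also at an assumed coefficient of variation of 0.1 or 0.2 between samples, while DESeq2 gave it no adjusted p. Its log2 fold change of 3.07 became 3.99 without the first scramble library, where the scramble level rested on 1 count. Per kb it stayed far under the subunit it replaces, at 7.30 CPM in the anti-miR132-3p cells, where Psmb6 had 380.2. Psmb10, the counterpart of Psmb7, had 34.8 and 26.7 CPM in the anti-miR132-3p libraries, against 19.4 and 27.7 CPM in the scramble libraries, which do not separate by test (fold 1.31, 0.972 to 1.76). Psmb8, the counterpart of Psmb5, was listed at 0 counts in all 4 libraries. Whether that is low expression or a loss in counting cannot be told apart here, since Tap2 and Gad1 were also listed at 0 where Tap1 had 72 counts in the anti-miR132-3p cells and 15 in the scramble cells, and Gad2 1795 and 1365.

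An interferon-induced list moved in the same libraries. All 9 tested genes of 12 rose, and their summed level, with untested genes included, was 596 to 601 CPM in the anti-miR132-3p libraries, against 123 to 144 CPM in the scramble libraries. Interferon is known to induce Psmb9, which rose, and also Psme1, Psme2 and Psmb10, which were not called.

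Nfe2l1, the transcription factor that raises proteasome genes when proteasome activity is short, rose. It had 71.9 and 76.6 CPM in the anti-miR132-3p libraries, against 45.5 and 39.8 CPM in the scramble libraries, a fold of 1.74 (1.42 to 2.14). It was called higher with the correction too, at a log2 fold change of 0.54, and at an assumed coefficient of variation of 0.1 between samples, but not at 0.2. Its protein is controlled after translation, by Ngly1, which strips its sugars, and Ddi2, which cleaves it, and neither gene passed the test (folds 0.822 and 1.13). Akirin2, which brings proteasomes into the nucleus, had a fold of 0.716 (0.494 to 1.03) and did not pass.

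Nfe2l1 binds elements of the form TGACNNNGC. RefSeq promoters on GRCm38.p6, 250 bases before to 50 after the start, were found for 33 of the 39 genes, and both strands were searched. Of these, 7 held TGACNNNGC, 21.2% against 14.0% of 27025 genes. They were Adrm1, Psmb5, Psmb6, Psmc6, Psmd9, Psmd12 and Psme4, of which Psmb6, Psmc6 and Psmd12 fell, where 20 of all 39 subunits fell. No promoter was found for Psmd3, the subunit that rose, so a rise among these 7 could not be seen. A link between the form and the falls was not tested. The CCAAT box was in 13, 39.4% against 41.1%. The interferon-response form, GAAA followed by NN and GAAA, was in 4, 12.1% against 3.99%, namely Psmb3, Psmd4, Psmd9 and Psme1. Of these Psmb3 (fold 0.821) and Psmd4 (0.791) fell, and Psmd9 and Psme1 were not called. The promoter of Psmb9, which rose, held no match of this form. The form TTCNNNGAA was in 1, Psmd2, 3.03% against 9.55%. A match is a description of letters and not a site shown to be bound. The promoters of the active-site genes Psmb5 (chr14:54617946-54618245, minus strand) and Psmb6 (chr11:70525107-70525406, plus strand) are shown because they carry the Nfe2l1 form next to the start, and that of Psme1 (chr14:55578244-55578543, plus strand) because it carries the interferon form on its other strand. Capitals mark the match.
Psmb5: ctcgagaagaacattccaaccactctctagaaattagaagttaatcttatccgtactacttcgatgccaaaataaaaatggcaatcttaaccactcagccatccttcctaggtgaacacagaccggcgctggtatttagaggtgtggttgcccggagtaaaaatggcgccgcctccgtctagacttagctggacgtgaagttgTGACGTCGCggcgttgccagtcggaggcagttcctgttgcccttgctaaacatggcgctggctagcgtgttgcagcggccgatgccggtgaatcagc
Psmb6: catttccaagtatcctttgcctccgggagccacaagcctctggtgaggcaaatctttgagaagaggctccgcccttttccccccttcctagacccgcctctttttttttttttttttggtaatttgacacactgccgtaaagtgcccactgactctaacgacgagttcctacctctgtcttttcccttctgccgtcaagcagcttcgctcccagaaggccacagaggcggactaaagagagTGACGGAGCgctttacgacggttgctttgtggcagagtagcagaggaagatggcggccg
Psme1: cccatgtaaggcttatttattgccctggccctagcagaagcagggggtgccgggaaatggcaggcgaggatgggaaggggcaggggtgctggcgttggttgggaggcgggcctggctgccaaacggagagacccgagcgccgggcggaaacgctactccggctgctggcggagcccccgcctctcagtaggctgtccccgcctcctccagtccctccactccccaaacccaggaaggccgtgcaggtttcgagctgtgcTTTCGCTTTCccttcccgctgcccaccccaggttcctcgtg

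Of these 3 genes, Psmb5 and Psme1 were not called, at folds of 0.926 and 1.01, and Psmb6 fell.

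The seed of miR-132-3p pairs with GACTGTT. Of the 39 genes, 2 hold that match in their annotated 3′ UTR, 5.13%, against 1331 of 10313 tested genes, 12.9%. The proteasome genes have short 3′ UTRs, with a median of 213 bases, against 1151. The matches are shown with the bases before them, match in capitals, because the genes that carry them would be the direct candidates for pairing.
Psma2, first site: acacttaggataataGACTGTTt
Psma2, second site: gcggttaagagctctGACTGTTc
Psmd12: tcattaaaaaagaaaGACTGTTt

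Neither gene rose. Psma2 was not called (fold 0.913) and Psmd12 fell (fold 0.822). Of 37 related pathway genes with a 3′ UTR, 4 hold the match: Nfe2l1, which rose, Usp14, which fell, and Txnl1 and Uba6, which were not called. The targeted microRNA itself is not measured by libraries of polyadenylated RNA.

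Among 12 further genes of proteins that ride on or regulate the proteasome, 3 fell and 1 rose. Zfand5, which stimulates the particle, had 207 and 196 CPM in the anti-miR132-3p libraries, against 276 and 290.5 CPM in the scramble libraries, a fold of 0.710 (0.644 to 0.783). Usp14, the deubiquitinase that trims chains at the base, had 221 and 230.5 CPM in the anti-miR132-3p libraries, against 317 and 269 CPM in the scramble libraries, a fold of 0.770 (0.701 to 0.846). Psmf1, an inhibitor of the core, had 129 and 128 CPM in the anti-miR132-3p libraries, against 154 and 158 CPM in the scramble libraries, a fold of 0.824 (0.726 to 0.935). All 3 were lower in both libraries, and all 3 were also called lower with the correction. Ubqln1, a shuttle that carries ubiquitinated proteins, rose, with a fold of 1.14 (1.04 to 1.255), and was not called with the correction. The other 8 genes did not pass the test.

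The genes of ubiquitin and of its activation moved in both directions. Ubb, a polyubiquitin gene, had 1938 and 1924 CPM in the anti-miR132-3p libraries, against 2769 and 2430.1 CPM in the scramble libraries, a fold of 0.743 (0.720 to 0.767). Uba1, the main ubiquitin-activating enzyme, had 199 and 206 CPM in the anti-miR132-3p libraries, against 146 and 158 CPM in the scramble libraries, a fold of 1.33 (1.19 to 1.49). Ubb fell and Uba1 rose, both also with the correction, and the other 3 tested genes of that list of 6 did not pass. None of the 6 tested genes of a list of 7 further assembly and adaptor factors passed (Paaf1 had no matched identifier), nor did any of 6 genes of Vcp, the segregase that feeds the proteasome, and its cofactors.

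The sorted cells carried ganglion cell and amacrine transcripts, and other lists moved between the groups. The 11 ganglion cell markers summed to 2056 to 2122 CPM in the anti-miR132-3p libraries, against 1884 to 1910 CPM in the scramble libraries, with 3 markers that rose, among them the panning target Thy1, and 1, Pou4f1, that fell. Folds were 1.47 for Thy1, 1.42 for Tubb3, 1.30 for Nefm, 1.02 for Nefl and 1.01 for Sncg. They were under 1 for Pou4f1 (0.681), Isl1 (0.684), Pou4f3 (0.713), Rbpms (0.833), Pou4f2 (0.916) and Slc17a6 (0.958). Pou4f2 did not pass the low-count filter. The 12 microglia and leukocyte markers summed to 70.2 to 79.0 CPM in the anti-miR132-3p libraries, against 5.53 to 5.55 CPM in the scramble libraries, and both tested markers, Cd74 and H2-Ab1, rose. Transcripts of this list were thus rare in both groups and higher in sum with the anti-miR132-3p shRNA. Cd74 held 126 and H2-Ab1 47 of its 257 counts in the anti-miR132-3p cells. The other markers of the list did not pass the low-count filter, and which cells these transcripts came from was not tested. Of the rod markers, Sag had 1 and 1 counts in the anti-miR132-3p libraries, against 70 and 61 in the scramble libraries, and Pdc had 3 and 0 counts, against 31 and 30. Sag, Pdc and Pde6b fell, and Gnat1 was at 0 in all 4 libraries. The 6 Müller glia markers summed to 1747 to 1773 CPM in the anti-miR132-3p libraries, against 1200 to 1212 CPM in the scramble libraries, with 2 that rose; Dkk3 alone held 5577 of the 6066 counts in the anti-miR132-3p cells. The sum follows Dkk3 and Apoe, while the other 4 had folds under 1: Rlbp1 0.619, Glul 0.933, Slc1a3 0.952 and Aqp4 0.393. Of these Rlbp1 and Glul were not called, and Slc1a3 and Aqp4 did not pass the low-count filter. The 7 amacrine markers summed to 2305 to 2357 CPM in the anti-miR132-3p libraries, against 2136 to 2173 CPM in the scramble libraries, with 3 that rose and Gad1, Slc32a1 and Tfap2b at 0. This sum was above the ganglion cell sum in each library, over lists of different genes, and that order rests on Pax6. Pax6 alone held 5545 of the 8036 counts of the amacrine list in the anti-miR132-3p cells and was not called (fold 0.985). The ganglion cell list held 7200 counts in the same cells. The 3 astrocyte markers summed to 12.2 to 15.1 CPM in the anti-miR132-3p libraries, against 19.9 to 23.3 CPM in the scramble libraries, and endothelial markers were near 0. The part of these cells in the proteasome values was not tested.

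Read assignment limits some genes. Of the 39, 18 overlap another annotated gene, and with no strand setting given for the counting, reads of overlapping partners cannot be told apart. The partners with the most counts were Emc9 at Psme1 (301 counts in the anti-miR132-3p cells and 292 in the scramble cells, where Psme1 had 305 and 317), AW209491 at Psma2 and Sirt3 at Psmd13. Psme2 has a near-identical copy, Psme2b, with 51 counts in the anti-miR132-3p cells and 46 in the scramble cells, so the value of Psme2 is uncertain.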

How the data were processed

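Messenger RNA of 4 libraries was sequenced from both fragment ends, 100 bases each. The authors deposited counts per gene as whole numbers. Per the submitters' processing notes, the work used GRCm39 and named Cuffdiff, Cuffnorm, Cufflinks, SAMtools 1.10, HISAT2 2.2.1 and Trimmomatic 0.39. The counter, annotation release and strand setting were not stated. Columns named for mCherry were taken as scramble by exclusion, since the others name miR132, and every direction rests on this. Of the 78334 identifiers, 51486 could be given a symbol, and those without one took 0.433% to 0.437% of a library.

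The fit used edgeR 4.0.16 in R 4.3.3 (filterByExpr, which kept 11427 genes, TMM scaling, glmQLFit and glmQLFTest, Benjamini-Hochberg adjustment) and was tested on simulated data. Alternatives used DESeq2 1.42.0, limma 3.58.1, other scalings and filters, left-out libraries, a replicate block, and a correction for GC content and length by splines with 4 degrees of freedom per library. Lengths, GC content and 3′ UTRs come from GENCODE M21 and promoters from RefSeq, both on GRCm38, read with Python 3.11.15; 98.7% of tested genes had a length and GC content. Values per library are given for subunits with an adjusted p under 0.05 and for the highest and lowest fold of each subunit group. Of the related genes, those called and all immunoproteasome genes were to be named. Ngly1, Ddi2, Akirin2, Txnl1, Uba6, Tap1, Tap2 and the overlapping or copied genes were named outside that rule, after their values were seen. The genes and lists were chosen with earlier results of these data known. The labels do not say whether the paired libraries stem from different mice, so p-values may measure technical spread. One marker gene, and the sum of the list that holds it, is not reported here.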

Additional observations from a re-analysis of the deposited data

How the results depend on the processing

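Of 39 subunits 20 fell, and of all tested genes 1183. With library totals these were 15 and 888, with limma-voom 18 and 1136, with TMMwsp factors 19 and 1165, at a mean count of at least 50 19 and 1020, with DESeq2 size factors 20 and 1277, and with edgeR's likelihood ratio test 21 and 1365. With the replicate block they were 22 and 1437, although paired numbers did not mark shared samples (correlation of deviations 0.0126). DESeq2's Wald test called 3 subunits lower (Psmb1, Psmc2 and Psmc3) and 0 higher, and over all genes 276 lower and 477 higher. At an unadjusted p under 0.05 it had 15 subunits lower and 0 higher, against 772 and 1100 of 11427 tested genes. Without the low-count filter 1 gene rose and 2 fell, and 0 subunits were called either way. At an unadjusted p under 0.05, 20 subunits were then lower and 1 higher, against 2449 and 2743 of 23361 genes. Leaving out any 1 library left no called gene of either direction, and so no called subunit. With each pair summed and an assumed coefficient of variation between samples of 0.1, 470 genes rose and 56 fell, and at 0.2 these were 50 and 6. In both cases 0 subunits were called, also at an unadjusted p under 0.05. A fold of 1.5 left 0 subunits higher or lower. The correction for GC content and length called 4 subunits lower and 2 higher, their median being -0.011, while over all tested genes it called 852 lower and 1238 higher. Library totals gave a summed ratio of 0.886. Leaving out 1 library gave medians of -0.27 to -0.20, summed ratios of 0.859 to 0.881, 15 to 20 subunits at least 1.2-fold lower and 1 to 2 at least 1.2-fold higher. The second was seen without anti-miR132-3p replicate 1. Of 11427 tested genes, 2589 to 2741 were at least 1.2-fold lower and 3190 to 3299 at least 1.2-fold higher with 1 library left out.

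Some log2 fold changes changed sign, and those listed are Psma1 and subunits with values given per library. The list is not complete, since 22 of the 39 values lay below 0 with the correction, against 35 without it. Psma1 went from -0.18 to 0.24 with the correction and was called higher. Also with the correction Psma4 was 0.11, Psma5 0.055, Psma6 0.057, Psmb7 0.0032, Psmc1 0.16, Psmd14 0.055, Psmd5 0.012, Psmd10 0.038 and Adrm1 -0.10. Adrm1 was -0.00084 with DESeq2 size factors, -0.0017 without the filter, -0.00075 with DESeq2's test, and -0.093 to 0.093 with 1 library left out. Psmd5 was 0.0095 with library totals, 0.020 at a mean count of at least 50, and -0.037 to 0.0057 with 1 library left out. Only the correction moved a subunit called in the uncorrected fit across 0 among these alternatives, and the cause was not tested. DESeq2 gave Psmb9 no adjusted p. The depth limit weighs most on the rarest subunit, Psmd9, which had 33 counts in its lowest library.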
